A study of Mus musculus with 6 samples.

Results

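Livers of 3 KRAP-/- mice and 3 wild-type mice were examined for the genes that the nuclear receptor PPARα switches on when the liver turns from carbohydrate to fat as its fuel. KRAP is an actin-associated protein whose gene is now listed as Itprid2. In the KRAP-/- line a neomycin resistance cassette stands in place of part of the coding region, in every cell of the body, and the line was backcrossed to C57BL6/J. Each KRAP-/- mouse had a wild-type littermate, which gives 3 littermate pairs, and all 6 mice were 32 weeks old and ate normal chow. RNA of each liver was hybridized to 1 Affymetrix GeneChip array, so each value below belongs to 1 mouse. The sources used here do not give the sex of these mice, nor the time of day or the hours since the last meal when the livers were taken.

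The genes were Angptl4, Fgf21, Pdk4, Cpt1a, Acot1, Cyp4a10, Cyp4a14, Vnn1 and Plin2, 9 well known PPARα targets of liver. Every probeset annotated to exactly 1 of these symbols was taken, which gave 12 of the 45037 probesets on the array other than controls, from 8 of the 9 genes. Cyp4a10 had no probeset of its own. Of the 12 probesets, 11 passed a limit on dim signals, as did 28531 probesets in all.

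PPARα binds fatty acids and their derivatives, pairs with the retinoid X receptor and sits on DNA at repeats of a short hexamer. During fasting, fatty acids released from adipose tissue reach the liver, and the receptor raises the genes for their uptake, oxidation, conversion to ketone bodies and storage in droplets. Its targets include secreted proteins that act on other tissues, such as Angptl4 and Fgf21, and enzymes that act inside the hepatocyte.

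The classic PPARα binding element is a direct repeat of the hexamer AGGTCA with 1 base between the copies, AGGTCANAGGTCA, or TGACCTNTGACCT on the other strand. The RefSeq table of GRCm38.p6 held a promoter for 5 of the 9 genes, Acot1, Cpt1a, Fgf21, Pdk4 and Plin2, each from 250 bases before to 50 bases after the annotated start. The 250 bases before the start are shown for 3 of them, because they differ in how close they come to the element: Plin2 (chr4:86670060-86670309, minus strand) held the closest match, Cpt1a (chr19:3323051-3323300, plus strand) a single hexamer, and Acot1 (chr12:84009252-84009501, plus strand) neither. Each is written 5′ to 3′ along its gene, and the capitals mark the match or the hexamer.
Plin2: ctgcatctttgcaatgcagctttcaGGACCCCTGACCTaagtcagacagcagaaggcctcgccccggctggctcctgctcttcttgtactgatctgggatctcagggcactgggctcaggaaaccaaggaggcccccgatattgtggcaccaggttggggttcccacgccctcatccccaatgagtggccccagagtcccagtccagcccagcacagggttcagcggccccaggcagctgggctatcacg
Cpt1a: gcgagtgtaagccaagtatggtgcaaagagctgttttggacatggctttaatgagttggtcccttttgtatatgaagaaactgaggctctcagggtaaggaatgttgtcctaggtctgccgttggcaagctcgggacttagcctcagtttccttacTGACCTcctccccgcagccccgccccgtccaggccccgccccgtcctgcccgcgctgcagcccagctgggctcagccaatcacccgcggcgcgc
Acot1: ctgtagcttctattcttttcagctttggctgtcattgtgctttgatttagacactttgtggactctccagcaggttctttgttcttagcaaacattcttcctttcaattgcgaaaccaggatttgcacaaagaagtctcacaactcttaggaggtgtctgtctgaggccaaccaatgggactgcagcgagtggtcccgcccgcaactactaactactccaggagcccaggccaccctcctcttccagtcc
The match in Plin2 began at base −225 from the start, on the strand opposite to the gene, with 2 mismatches in the 12 letters that the element fixes. Of 32851 promoters of the same length, 3.86% held a match at least as close on either strand. The hexamer of Cpt1a began at base −94, and 16.3% of all promoters held AGGTCA or TGACCT. The best match to the whole element in Cpt1a, Acot1, Fgf21 and Pdk4 had 4 mismatches, which 79.8% of promoters reached. A match is only a description of these letters, and the arrays measured RNA, not binding.

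Values are the deposited signal intensities divided by the median of all probesets on the same array, so a value of 1 is the signal of a typical probeset. Levels can be compared between mice, and not between probesets. A log2 fold change is KRAP-/- minus wild type, on signals floored at 0.1, from a limma fit in which littermate pairs form blocks. Adjusted p-values are Benjamini-Hochberg values over all 28531 probesets, with 0.05 as the threshold. The array medians before division were 20.2 to 23.4 in KRAP-/- liver and 19.1 to 22.6 in wild-type liver, the lowest being that of wild-type mouse 3. The probeset of KRAP itself had a mean of 21.0 ± 0.850 (SD, n = 3) in the knockout mice and of 23.6 ± 1.15 (SD, n = 3) in their littermates. Its place relative to the deleted exons is not given in the sources used here, so it does not check the labels.

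Angptl4, the secreted inhibitor of lipoprotein lipase, was the gene of the 9 that rose in KRAP-/- liver, by 1.65-fold. Of the 11 probesets, 5, those of Acot1, Vnn1 (both), Plin2 and the brightest of Cpt1a, stood higher in the KRAP-/- mouse of pairs 1 and 2 and lower in that of pair 3. Without division by the array median, the pair 3 ratio of KRAP-/- to wild type was 1.05 for that Cpt1a probeset, so it was not lower there. The ratio was then 0.967 for Acot1, 0.842 and 0.815 for Vnn1 and 0.819 for Plin2. With division by the array median, wild-type mouse 3 had the highest wild-type value for 10 of the 11. Pdk4, which turns glucose carbon away from oxidation, had a lower signal in the KRAP-/- mouse of every pair, without passing the test. Over the 11 probesets, 1 was called higher in KRAP-/- liver, against 0.431% of all probesets tested, and 0 were called lower, against 0.978%. At an unadjusted p under 0.05, limma placed 6 of the 11 higher, against 5.58% of all, and 1 lower, against 9.30%. The 6 were those of Angptl4 and Cyp4a14, the dimmer of Vnn1 and all of Cpt1a, so some genes count more than once. At the brightest probeset of each gene, 3 of 8 genes were higher, against 3.93% of 13217 genes, and 1 was lower, against 11.8%.

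Among the secreted proteins, the probeset of Angptl4 (1417130_s_at) read 55.9, 54.8 and 53.5 in KRAP-/- mice 1, 2 and 3 and 33.5, 29.0 and 37.6 in wild-type mice 1, 2 and 3. The groups did not overlap, and the KRAP-/- values lay close together, above every wild-type value. The mean was 54.7 ± 1.19 (SD, n = 3) against 33.4 ± 4.29 (SD, n = 3). The log2 fold change was 0.72, standard error 0.10, with a 95% interval of 0.49 to 0.95 and an adjusted p of 0.011 from limma. The KRAP-/- mouse stood 1.67, 1.89 and 1.42 times above its littermate in pairs 1, 2 and 3. In whole liver, more RNA per cell and more cells of a type that carries the RNA cannot be told apart. The call held in limma without pair 1, pair 2 or pair 3, with adjusted p of 0.0063, 0.011 and 0.0018. It was lost when the spread was not fitted as a trend on intensity (adjusted p = 0.42, limma) and when dim probesets were tested too (adjusted p = 0.38, limma), settings under which 0 probesets of the array passed. A second probeset of Angptl4 (1453410_at) read at most 0.461 on any array and was too dim to test. The call of Angptl4 thus rests on a single probeset.

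Fgf21, the hormone that the fasted liver releases, was dim and variable. Its signal was 0.731, 1.17 and 1.85 in KRAP-/- mice 1, 2 and 3 and 0.762, 0.174 and 3.77 in wild-type mice 1, 2 and 3. Wild-type mouse 2 was the lowest of the 6 and wild-type mouse 3 the highest, with all KRAP-/- mice between them. Its log2 fold change was 0.55, standard error 0.63, adjusted p = 0.73 from limma, and it turned to −0.54 without pair 2. The files hold no detection calls, so signals this low are not shown to be above background.

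Pdk4 is the kinase that shuts pyruvate dehydrogenase and so spares glucose. It read 2.89, 5.53 and 4.07 in KRAP-/- mice 1, 2 and 3 and 3.86, 5.82 and 15.3 in wild-type mice 1, 2 and 3. Wild-type mouse 3 stood far above the other 5 mice, which overlapped. The KRAP-/- mouse had 0.749, 0.949 and 0.266 times the signal of its littermate in pairs 1, 2 and 3, and Pdk4 was the only one of the 11 probesets lower in all 3 pairs, against 22.4% of all probesets tested. The log2 fold change was −0.80, standard error 0.30, adjusted p = 0.26 from limma. Without pair 3 it was −0.25 (adjusted p = 0.60, limma), and without pair 2 it was −1.16 and passed (adjusted p = 0.012, limma).

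Cpt1a is the outer mitochondrial membrane enzyme that sets the rate at which long-chain fatty acids enter oxidation, and it had 3 probesets. The brightest (1460409_at) read 111, 104 and 97.9 in KRAP-/- mice 1, 2 and 3 and 72.1, 79.3 and 106 in wild-type mice 1, 2 and 3. There wild-type mouse 3 lay within the KRAP-/- range and the other wild-type mice below it. The log2 fold change was 0.30, standard error 0.13, adjusted p = 0.31 from limma. The probeset 1434866_x_at read 25.0, 40.0 and 27.1 against 22.5, 20.9 and 20.2, in the same order, and its groups did not overlap. The probeset 1438156_x_at read 9.99, 13.5 and 14.7 against 7.04, 7.88 and 10.5, and its groups overlapped at wild-type mouse 3. These 2 probesets were higher in the KRAP-/- mouse of all 3 pairs, with log2 fold changes of 0.50 ± 0.14 (SE) and 0.59 ± 0.12 (SE) and adjusted p of 0.14 and 0.051 from limma. The ending _x_at marks probesets whose probes may also bind other transcripts. The probeset 1438156_x_at passed in limma with the values as deposited (adjusted p = 0.032) and with quantile normalization (adjusted p = 0.038).

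Acot1 is a cytosolic thioesterase that frees fatty acids from coenzyme A. Its probeset (1449065_at) read 37.0, 43.9 and 55.9 in KRAP-/- mice 1, 2 and 3 and 19.5, 32.3 and 65.6 in wild-type mice 1, 2 and 3. Wild-type mouse 3 was the highest of the 6, and the other wild-type mice were below every KRAP-/- mouse. The KRAP-/- mouse had 1.90, 1.36 and 0.853 times the signal of its littermate, and the log2 fold change was 0.38, standard error 0.18, adjusted p = 0.37 from limma. A probeset annotated to both Acot2 and Acot1, which was not counted among the 12, read 35.5, 35.5 and 46.5 against 16.8, 26.0 and 57.3 and had the same order of wild-type mice.

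Cyp4a14 and Cyp4a10 hydroxylate fatty acids at the omega end, in the endoplasmic reticulum. Cyp4a14 (1423257_at) read 395, 416 and 448 in KRAP-/- mice 1, 2 and 3 and 318, 326 and 396 in wild-type mice 1, 2 and 3. The groups met where wild-type mouse 3 reached the level of KRAP-/- mouse 1. The KRAP-/- mouse was 1.24, 1.28 and 1.13 times its littermate, and the log2 fold change was 0.28, standard error 0.08, adjusted p = 0.13 from limma. A probeset annotated to both Cyp4a31 and Cyp4a10 read 585, 534 and 595 against 439, 486 and 551, a log2 fold change of 0.22 with an adjusted p of 0.28 from limma. Members of this family share sequence, so signals may come from more than the named gene.

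Vnn1 is a pantetheinase, which releases pantothenic acid and cysteamine from pantetheine. Its brighter probeset (1418486_at) read 95.5, 119 and 126 in KRAP-/- mice 1, 2 and 3 and 52.4, 50.04 and 170 in wild-type mice 1, 2 and 3. Its other probeset (1447845_s_at) read 31.6, 46.1 and 49.5 against 16.4, 15.5 and 68.9, in the same order of mice. On both probesets wild-type mice 1 and 2 were well below all KRAP-/- mice and wild-type mouse 3 well above them. The log2 fold changes were 0.56 ± 0.25 (SE) and 0.68 ± 0.30 (SE), with adjusted p of 0.34 and 0.33 from limma.

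Plin2, the protein coat of hepatocyte lipid droplets, had nearly level signals apart from 1 mouse. It read 180, 188 and 196 in KRAP-/- mice 1, 2 and 3 and 168, 168 and 272 in wild-type mice 1, 2 and 3. Wild-type mouse 3 was again the highest, and the other wild-type mice were the lowest. The log2 fold change was −0.07, standard error 0.12, adjusted p = 0.83 from limma, and it turned to 0.13 without pair 3 (adjusted p = 0.58).

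**Figure D1:**
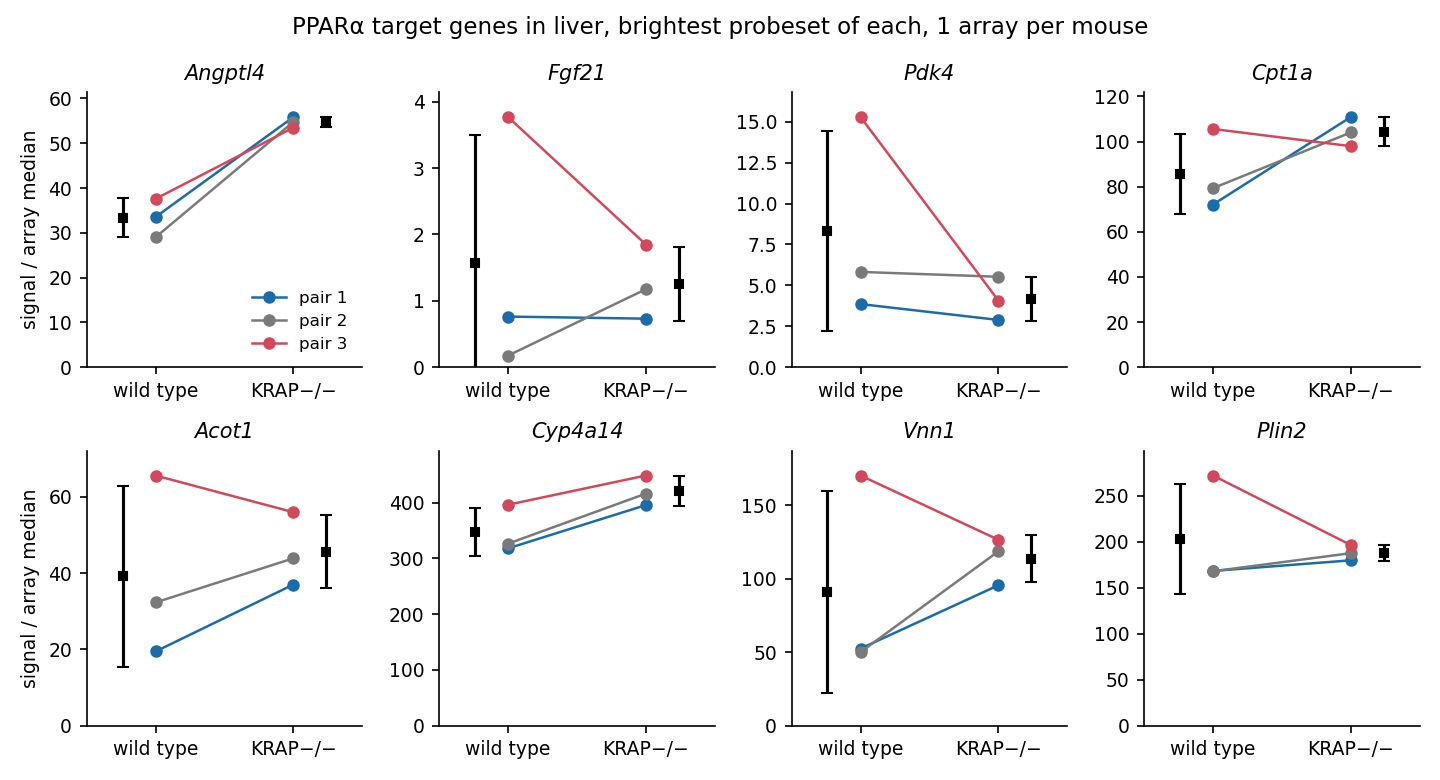
Signal divided by the array median (linear axis from 0) for the 8 genes with a probeset of their own, at the brightest probeset of each, with 1 point per mouse, a line joining the littermates of each pair, and black squares with bars for the mean and SD of 3 mice. For Angptl4 the KRAP-/- values of 53.5 to 55.9 lie above the wild-type values of 29.0 to 37.6, while for Pdk4, Acot1, Vnn1 and Plin2 the wild-type mouse of pair 3 is the highest of the 6; the lower bar of wild-type Fgf21 passes below 0 and is cut at the axis.

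The methods' own rule, by which the signals of littermates had to differ 1.5-fold or more in the same direction in every pair, took 0 of the 12 probesets in either direction, against 2.30% of all 45037 probesets higher and 2.88% lower. Angptl4 came nearest and fell short in pair 3 alone. With the values as deposited its ratios were 1.72, 1.79 and 1.61, and it met the rule. Once dim probesets, those averaging under 1, were left out, the rule took 176 higher and 239 lower in place of 1035 and 1299. These are counts of the rule as applied here, and not those of the study's own, shorter list. Among the 11 tested probesets, 5 reached a ratio of 1.5 in pair 1, 6 in pair 2 and 0 in pair 3, against 12.4%, 11.9% and 10.8% of all probesets tested. The KRAP-/- mouse was the higher one for 9, 10 and 4 of the 11 in pairs 1, 2 and 3, against 46.8%, 48.1% and 43.3% of all. Of the 11, 4 were higher in all 3 pairs, against 15.3% of all, and the 5 that were higher in pairs 1 and 2 and lower in pair 3 stood against 12.9%. Groups that did not overlap, with KRAP-/- higher, were seen for 2 of the 11, against 7.80% of all.

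Wild-type mouse 3 had the highest wild-type value for 10 of the 11 probesets, against 33.0% of all probesets tested, the exception being a Cpt1a probeset. This rank is after division by the array median, which raises wild-type mouse 3 most, since its median was the lowest. The ranks of the wild-type mice without that division are not given here. It stood at least 1.5-fold above the next wild-type mouse for 6 of the 11, those of Fgf21, Pdk4, Acot1, Vnn1 (both) and Plin2, against 3.88% of all. No probeset of the 11 stood out in this way in wild-type mouse 1 or 2 or in KRAP-/- mouse 1 or 2, against 4.20%, 3.27%, 3.46% and 3.21% of all, and 1, that of Fgf21, did in KRAP-/- mouse 3, against 3.54%. With log2 signals centred on each gene's mean of 6 arrays, the mean over the 8 genes was −0.09, 0.18 and 0.27 in KRAP-/- mice 1, 2 and 3 and −0.48, −0.59 and 0.71 in wild-type mice 1, 2 and 3. Fgf21, whose signals are not shown to be above background, had the largest deviations in wild-type mice 2 and 3, −2.46 and 1.97. The median over the 8 genes was −0.03, 0.15 and 0.28 in KRAP-/- mice 1, 2 and 3 and −0.36, −0.26 and 0.62 in wild-type mice 1, 2 and 3. By mean or median, the wild-type mice spanned a wider range for these genes than the KRAP-/- mice did, with the KRAP-/- mice between them. Whether pair 3 differs from the other pairs was not tested, since it is 1 pair.

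Pair 3 holds the high values of wild-type mouse 3, so leaving it out raises the fold changes of these targets before any test. Calls made without it are therefore no independent support. That fit holds only pairs 1 and 2, so its p-values lean heavily on the spread that limma estimates over all probesets. Without pair 3, limma called 6 of the 11 probesets higher in KRAP-/- liver, against 1.03% of all probesets, and 0 lower, against 1.64%. The log2 fold changes were then 1.05 and 1.26 for Vnn1 (adjusted p = 4.9e-04 and 7.5e-04), 0.68 for Acot1 (adjusted p = 0.016), and 0.51 and 0.64 for the Cpt1a probesets 1460409_at and 1438156_x_at (adjusted p = 0.025 and 0.044). Angptl4 was the other one. In the same fit Acta1, the actin of skeletal muscle, was lower (log2 fold change −2.52, adjusted p = 0.0030), as were the macrophage markers Lyz2 (−0.68, adjusted p = 0.012) and Clec4f (−0.51, adjusted p = 0.032) and the clock genes Dbp (−0.53, adjusted p = 0.037) and Nfil3 (−1.17, adjusted p = 0.023). These genes were named after their values were seen, and their part in the levels of the PPARα targets was not tested. Without pair 1, 2 of the 11 passed as higher, Angptl4 and the Cpt1a probeset 1434866_x_at (log2 fold change 0.68, adjusted p = 0.022 from limma), against 0.430% of all. Without pair 2, Angptl4 passed as higher, against 0.649% of all, and Pdk4 as lower, against 1.22%. Leaving out pair 1 or 2, or a mouse, likewise removes values already seen. Calls made only in such fits, here and below, are no independent support. With wild-type mouse 3 alone left out and no littermate block, 3 of the 11 passed as higher, Angptl4 and both probesets of Vnn1, against 0.602% of all. Leaving out KRAP-/- mouse 1, 2 or 3 or wild-type mouse 1 or 2 in that way left Angptl4 alone as higher, against 0.0874%, 0.0838%, 0.116%, 0.172% and 0.207% of all. With all 6 mice and no littermate block, Angptl4 was the 1 probeset called higher, against 0.326% of all, and 0 were called lower, against 0.894%.

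**Figure D2:**
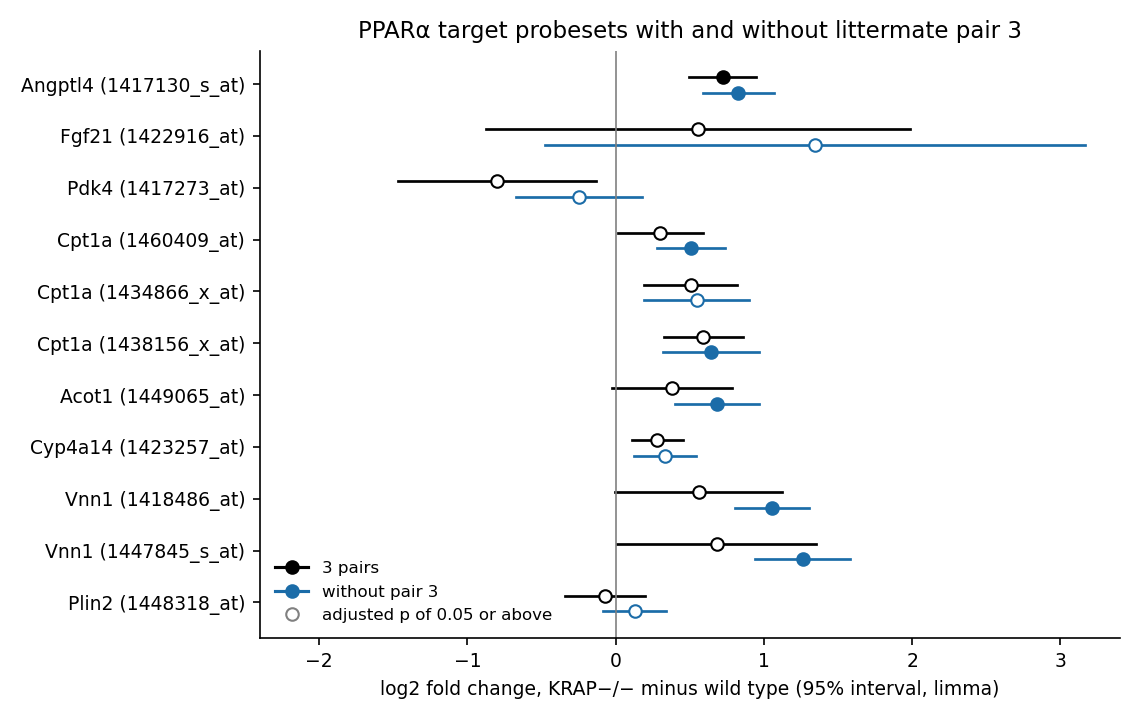
Log2 fold change, KRAP-/- minus wild type, with its 95% interval from limma for the 11 tested probesets, from all 3 pairs (black) and without pair 3 (blue), where filled points have an adjusted p under 0.05. With all pairs Angptl4 is filled at 0.72, and without pair 3 the filled points also include both Vnn1 probesets at 1.05 and 1.26, Acot1 at 0.68 and the Cpt1a probesets at 0.51 and 0.64.

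Values of other genes that moved with pair 3 are given here, and their part in the results was not tested. Dbp, a transcription factor whose RNA swings strongly over the day, read 18.7, 16.2 and 6.82 in KRAP-/- mice 1, 2 and 3 and 26.9, 23.3 and 7.02 in wild-type mice 1, 2 and 3. Both mice of pair 3 were low. Dbp and the following markers were singled out after their values were seen. Adipoq, made by adipocytes, read 0.144, 0.032 and 0.253 against 2.20, 0.694 and 0.444, and Acta1 read 0.558, 0.706 and 0.805 against 4.42, 2.92 and 0.294, so neither was highest in wild-type mouse 3. Of 7 adipocyte markers 3 were bright enough to test, and Lep was too dim. In limma 0 of the 3 passed and 1 was lower at an unadjusted p under 0.05, against 11.8% of all genes. The summed signal of the 3 was 8.45 to 11.5 in KRAP-/- liver and 8.50 to 25.9 in wild-type liver. Of 6 muscle markers 2 were bright enough and 0 passed with all 3 pairs, also at an unadjusted p under 0.05, with sums of 1.52 to 1.81 and 0.636 to 5.48.

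Hepatocyte markers summed to 3750 to 4253 in KRAP-/- liver and 3826 to 4004 in wild-type liver, with 0 of 7 tested passing. Of 8 macrophage markers, 1 fell, Clec4f, a lectin of Kupffer cells, by −0.54 on the log2 scale (adjusted p = 0.025, limma). All 8 had a log2 fold change below 0, with a median of −0.47, while 37.9% of all genes had one above 0. At an unadjusted p under 0.05 in limma, 5 of the 8 were lower, against 11.8% of all genes. The sums of the 8 did not overlap, at 197 to 209 in KRAP-/- liver and 238 to 279 in wild-type liver. The call of Clec4f was lost in limma with the values as deposited (adjusted p = 0.071) and when KRAP-/- mouse 1, 2 or 3 or wild-type mouse 2 was left out without the littermate block (adjusted p = 0.077, 0.067, 0.079 and 0.074). The part of this difference in the levels of the PPARα targets was not tested. Among 6 endothelial, 6 stellate, 4 biliary and 1 blood marker that could be tested, 0 passed. At an unadjusted p under 0.05 in limma, 1 stellate marker was higher and 2 were lower, against 3.93% and 11.8% of all genes.

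A wider list held 45 further PPARα targets, of which 35 could be tested at the brightest probeset of each gene. After division by the array median, the same wild-type mouse was the highest of its genotype for most of them. Plin4, a coat protein of lipid droplets, rose: it read 5.72, 4.63 and 3.65 in KRAP-/- mice 1, 2 and 3 and 1.47, 1.40 and 2.05 in wild-type mice 1, 2 and 3. The groups did not overlap, and the log2 fold change was 1.51, standard error 0.24, adjusted p = 0.020 from limma. No other gene of the list passed, in either direction, against 0.333% of 13217 genes called higher and 1.31% called lower. At an unadjusted p under 0.05, limma placed 11 of the 35 higher and 1 lower, against 3.93% and 11.8% of all genes. Plin4 missed the threshold when KRAP-/- mouse 1 or 2 was left out without the littermate block (adjusted p = 0.057 and 0.051, limma).

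The median log2 fold change of the 35 was 0.16 and that of the 8 genes with a probeset of their own 0.34, while that of all genes tested was −0.08. Of the 35, 29 had a log2 fold change above 0, as did 6 of the 8, against 37.9% of all genes. By pair, 29, 33 and 13 of the 35 were higher in the KRAP-/- mouse of pairs 1, 2 and 3, against 42.1%, 42.6% and 38.7% of all genes. For the 8 genes these numbers were 6, 7 and 2. These counts, and those that follow, use signals divided by the array median, which lowers the ratios of pair 3. Wild-type mouse 3 was the highest wild-type mouse for 32 of the 35 and for 8 of the 8, against 30.2% of all genes. It was the highest of all 6 mice for 17 of the 35 and 5 of the 8, against 16.9% of all genes.

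Without pair 3, limma called 8 of the 35 higher, against 0.853% of all genes, and 0 lower, against 2.19%. Wild-type mouse 3 was high for this list too, so this count is no independent support either. The 8, named after their values were seen, were led by Plin4 (log2 fold change 1.84), Pex11a, which divides peroxisomes (1.002), and the peroxisomal thioesterase Acot3 (0.78). Next came the retinol saturase Retsat (0.75), the fatty acid transporter Cd36 (0.63) and the acylcarnitine carrier Slc25a20 (0.60). The others were Fitm2, which acts in lipid droplet formation (0.53), and the fatty aldehyde dehydrogenase Aldh3a2 (0.44). Without pair 2, G0s2, an inhibitor of the lipase that opens lipid droplets, also named after its values were seen, was lower (log2 fold change −1.12, adjusted p = 3.4e-04 from limma). G0s2 read 40.8, 48.8 and 35.3 in KRAP-/- mice 1, 2 and 3 and 60.4, 40.4 and 113 in wild-type mice 1, 2 and 3. As for Pdk4, wild-type mouse 3 was far above the other mice.

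**Figure D3:**
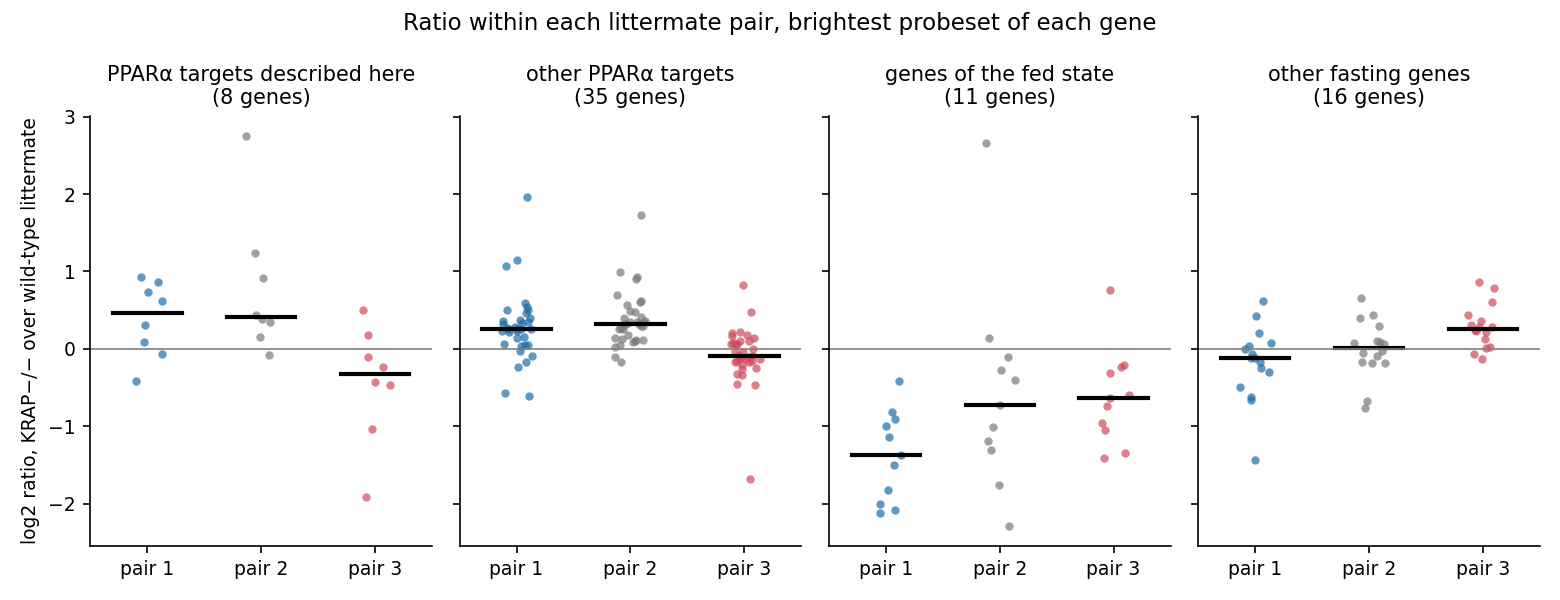
Log2 ratio of the KRAP-/- mouse to its wild-type littermate in pairs 1, 2 and 3, with 1 point per gene at its brightest probeset and a black bar for the median, in 4 lists of 8, 35, 11 and 16 genes. The medians of the 8 PPARα targets described here are 0.47, 0.42 and −0.33. Those of the 35 others are 0.26, 0.32 and −0.09, and those of the 11 fed-state genes −1.36, −0.72 and −0.64. The medians of all 13217 genes, not drawn, are −0.07, −0.06 and −0.09, so in pair 3 the 35 others lie close to the median of all genes.

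The receptor itself, Ppara (1449051_at), read 96.1, 92.0 and 83.1 in KRAP-/- mice 1, 2 and 3 and 38.1, 58.7 and 75.0 in wild-type mice 1, 2 and 3. The groups did not overlap, and wild-type mouse 3 was again the highest of its genotype. The log2 fold change was 0.71, standard error 0.18, adjusted p = 0.11 from limma, which did not pass. In limma it passed without pair 2 (0.74, adjusted p = 0.025) and without pair 3 (0.99, adjusted p = 0.0030). Pair 3 had the smallest ratio of the receptor (1.11), so leaving it out raises the fold change before any test. Calls made only with a pair left out are no independent support. Of 14 tested genes for the receptor, its partners and its coactivators, 0 passed. At an unadjusted p under 0.05 in limma, 4 were higher, against 3.93% of all genes. The median log2 fold change of the 14 was 0.11. Among them, Ppargc1a, the coactivator PGC-1α, singled out after its values were seen, read 7.299, 7.19 and 8.27 against 4.44, 5.31 and 4.46, a log2 fold change of 0.68 with an adjusted p of 0.060 from limma, and it passed without the littermate block (adjusted p = 0.040). Unlike the targets, it was lower in wild-type mouse 3 than in wild-type mouse 2. Lpin1, a phosphatidate phosphatase that also acts as a coactivator, read 89.9, 38.7 and 89.4 against 49.1, 44.8 and 32.8, with KRAP-/- mouse 2 apart from the other KRAP-/- mice. It stood 0.70 higher on the log2 scale, which did not pass (adjusted p = 0.22, limma). In limma it passed without pair 2 (1.16, adjusted p = 1.5e-05) and without KRAP-/- mouse 2 and the block (1.11, adjusted p = 0.017). Both settings leave out the low value of KRAP-/- mouse 2, which raises the fold change before any test, so they are no independent support.

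Of 16 tested genes that fasting raises by other routes, such as glucagon and glucocorticoid signalling, 0 passed, and the median log2 fold change was 0.07. At an unadjusted p under 0.05 in limma, 2 were higher, against 3.93% of all genes. Wild-type mouse 3 was the highest wild-type mouse for 2 of the 16, against 30.2% of all genes. The KRAP-/- mouse was the higher one for 5, 8 and 14 of the 16 in pairs 1, 2 and 3, against 42.1%, 42.6% and 38.7%. For Igfbp1, a secreted binding protein of insulin-like growth factors, the log2 fold change was 0.40, with 0.26 as the adjusted p in limma. It passed in limma without pair 2 (0.65, adjusted p = 0.0077). Pair 2 was the only pair in which the KRAP-/- mouse was lower (ratio 0.942), so that pass is no independent support. Sesn1, a stress-induced sestrin, read 5.68, 8.24 and 7.497 in KRAP-/- mice 1, 2 and 3 and 8.69, 9.35 and 7.35 in wild-type mice 1, 2 and 3, a log2 fold change of −0.26 that did not pass (adjusted p = 0.46, limma).

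Of 11 tested genes of the fed state, which insulin and carbohydrate raise, 6 fell in KRAP-/- liver, against 1.31% of all genes. None of the 11 rose, against 0.333%, and their median log2 fold change was −0.76. Acacb, which makes the malonyl-CoA that blocks Cpt1a, fell in limma, with a log2 fold change of −1.92 at an adjusted p of 0.0029, from 8.69, 9.47 and 7.71 in wild-type mice 1, 2 and 3 to 2.06, 1.94 and 2.90 in KRAP-/- mice 1, 2 and 3. The groups were far apart, and wild-type mouse 3 stood with the other wild-type mice, unlike for the PPARα targets. The log2 fold change was −1.49 for Fasn, the fatty acid synthase, −1.496 for Thrsp, a lipogenic regulator, and −1.17 for Acly, which supplies cytosolic acetyl-CoA, and all of them passed. Thrsp missed the threshold without the littermate block (adjusted p = 0.060, limma) and, without it, when any mouse but wild-type mouse 3 was left out (adjusted p of 0.075 to 0.18). Wild-type mouse 1 was the highest wild-type mouse for 9 of the 11, against 42.5% of all genes, and wild-type mouse 3 for 1, against 30.2%. Of 15 clock genes, 1 rose, Hlf, a transcription factor of the family of Dbp (log2 fold change 0.72, adjusted p = 0.038 from limma, lost without pair 1 at 0.12), and 0 fell. Hlf was also lost, without the littermate block, when KRAP-/- mouse 1 or 2 or wild-type mouse 1 or 2 was left out. At an unadjusted p under 0.05 in limma, 3 of the 15 were higher and 4 lower, against 3.93% and 11.8% of all genes. Wild-type mouse 3 was the highest wild-type mouse for 4 of these 15, against 30.2% of all genes.

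**Figure D4:**
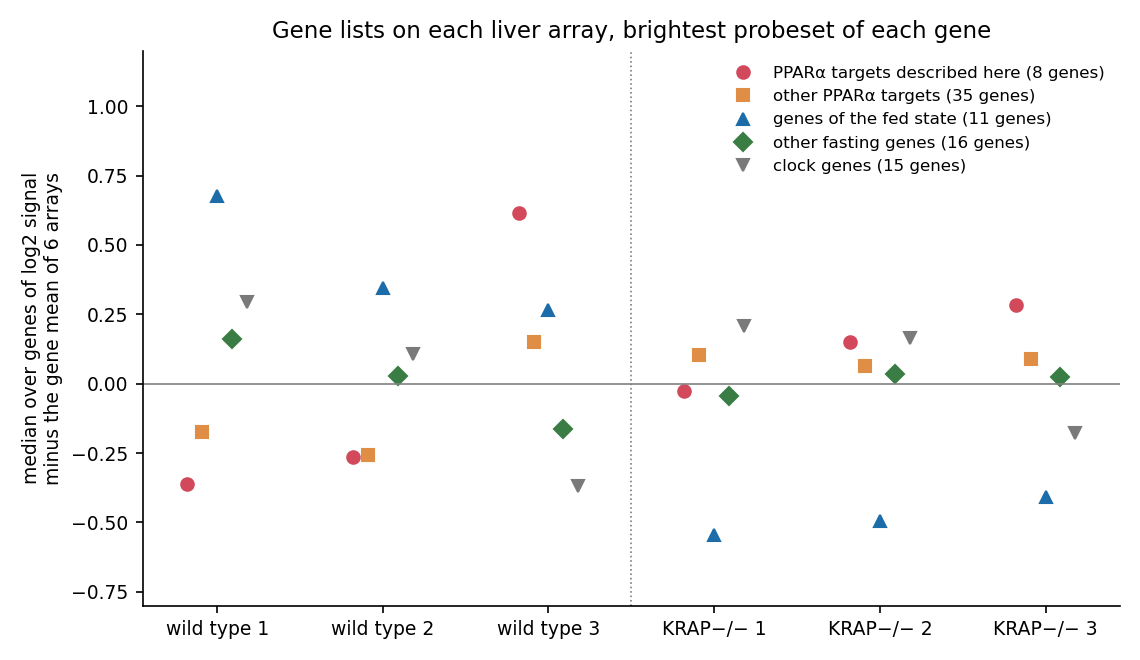
Median over the genes of each list of the log2 signal minus the gene's mean of 6 arrays, for each mouse, at the brightest probeset of each gene; symbols stand for lists, as named in the key with their numbers of genes. In wild-type mouse 3 the 8 PPARα targets lie at 0.62, against −0.36 and −0.26 in wild-type mice 1 and 2, while the fed-state genes lie above 0 in all 3 wild-type mice and below 0 in all 3 KRAP-/- mice.

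The 8 genes did not all follow 1 pattern. Over the 6 arrays, Pearson's r of log2 signals between 2 of these genes ran from −0.37 to 0.90 over 28 gene pairs, was above 0 for 27 of them and above 0.8 for 10, with a median of 0.66. Acot1 and Vnn1 were the most alike (r = 0.90) and Angptl4 and Pdk4 the least (r = −0.37). Angptl4 went with Cyp4a14 (r = 0.85), both higher in the KRAP-/- mouse of every pair, though only Angptl4 passed. Pdk4 went with Plin2 (r = 0.83), both set apart by wild-type mouse 3. These are descriptions over 6 arrays that share the genotypes and the littermate pairs. Among 11037 other genes, those whose log2 signals followed the mean pattern of the 8 most closely were Nxpe2 (r = 0.99), 4833411C07Rik (r = 0.98), Ackr2, a decoy receptor of chemokines (r = 0.98), Abhd6, a monoacylglycerol lipase (r = 0.98), and Zdhhc13, a palmitoyltransferase (r = 0.98). Of these, Nxpe2 read 6.98, 7.24 and 7.98 in KRAP-/- mice 1, 2 and 3 and 5.71, 5.51 and 9.51 in wild-type mice 1, 2 and 3. It had the same order as Vnn1, with wild-type mice 1 and 2 lowest and wild-type mouse 3 highest. The genes named as closest were picked from 11037 over only 6 arrays, so some high r can be met for any pattern. The mean pattern also includes Fgf21, whose signals are not shown to be above background.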

How the data were processed

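The authors deposited linear signal intensities from the GCOS software for 3 KRAP-/- and 3 wild-type livers, without the scaling to the 50th percentile named in the methods. After removal of 64 control probesets, each signal was divided by its array's median, floored at 0.1 and log2 transformed. A mean of 0.5 or more was required for testing, which 28531 probesets met. Models used limma 3.58.1 under R 4.3.3, with littermate blocks and an intensity trend, and the fit was tested on simulated data. The pairing comes from the study's littermates, whose deviations from the genotype means had correlations of 0.043, 0.0095 and −0.012. Of the probesets, 34945 carried 1 symbol, 932 several and 9160 none. A gene in a list was read at its brightest probeset. The number of arrays limits the precision. With littermate blocks, p-values measure the spread over pairs of the difference between littermates. Without blocks, they measure the spread between mice of a genotype. In both, limma draws this spread toward that of other probesets, with the trend those of like intensity.

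The genes and lists were chosen with earlier results of these data known, and are no independent support. Named were each target, KRAP, the 5 genes most like the targets' mean pattern and, by size of change, at most 4 called genes of each list, or at most 2 where none was called. Genes outside this rule are marked in the text as named after their values were seen. Settings tried in turn were no division by the median, quantile normalization, floors of 0.01 and 0.5, a pseudocount of 0.25, all probesets or a mean of 1, no littermate block, no trend, no _x_at or _s_at probesets, a 2-fold limit and each pair left out. Leaving out each mouse without the block was added after seeing the data. Python 3.11.15, numpy 2.4.6 and pandas 2.3.3 scanned the promoters, and matplotlib 3.10.9 drew the figures. Arrays of brown fat were not analysed here.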

Additional observations from a re-analysis of the deposited data

How the results depend on the processing

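Without the littermate block the counts for the PPARα targets were the same, 1 of 11 probesets higher and 0 lower, and Angptl4 passed (adjusted p = 0.0081, limma). Without the intensity trend, or with all probesets tested, 0 probesets of the array passed limma's test in either direction, against 123 higher and 279 lower. At an unadjusted p under 0.05, 1295 were higher and 1794 lower without the trend, and 1614 higher and 2937 lower with all probesets. Under both settings 0 of the targets, of the 35 other targets, of the fed-state genes and of the clock genes passed. The cause was not tested. Targets called higher numbered 2 with the values as deposited, quantile normalization, a floor of 0.5, a pseudocount of 0.25 or a mean signal of at least 1, and 0 without _x_at and _s_at probesets, which removes the called probeset of Angptl4. They ranged from 1 to 6 higher and 0 to 1 lower when a pair or mouse was left out. Over the array this gave 24 to 295 higher and 118 to 469 lower. The other ranges were 0 to 8 higher and 0 to 1 lower for the 35 other targets, 0 to 3 higher for the receptor and its partners, 0 to 1 in either direction for other fasting genes, 3 to 7 lower for fed-state genes, and 0 to 1 higher and 0 to 2 lower for clock genes. For the receptor and its partners, 1 was higher with the values as deposited, quantile normalization, a floor of 0.5 or no replicate block. For clock genes, 1 was lower with the values as deposited, a floor of 0.5, a pseudocount of 0.25 or without _x_at and _s_at probesets. The 1.5-fold rule took 1 target, Angptl4, as higher with the values as deposited. Over the array it took 1035 higher and 1299 lower, against 376 and 535 with a 2-fold limit and 176 and 239 with a mean signal of at least 1.

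When a pair or mouse was left out, the log2 fold change turned its sign in some settings for Fgf21 (−0.54 to 1.68), Plin2 (−0.19 to 0.16), Acot1 (−0.034 to 0.84), the muscle marker Ckm (−0.38 to 0.71), the endothelial marker Lyve1 (−0.44 to 0.14), the biliary markers Krt7 (−1.88 to 0.33) and Krt19 (−0.93 to 0.026), and the blood marker Alas2 (−0.31 to 0.010), none of which passed with all 3 pairs. Of these, Acot1 passed without pair 3. Dim signals, which the files do not mark as detected or not, limit what can be said of Fgf21.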
